A study of Mus musculus with 904 samples.

Results

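Of 894 single nuclei kept from mouse brain nuclei sorted for a fluorescent nuclear reporter, 70 were astrocyte nuclei, a share of 7.83% (exact binomial 95% interval 6.15% to 9.79%, counting error only, nuclei taken as independent). A nucleus was called an astrocyte when at least 2 of Aqp4, Gja1, Slc1a3, Slc7a10 and Ntsr2 reached 20 CPM (reads of a gene per 1000000 reads assigned to genes in that nucleus). Slc17a7, Gad1, Rgs9 and Mog, which mark neurons and oligodendrocytes, each had to stay under 20 CPM. The members were thus chosen by their own measured levels of these 9 genes. A library with fewer than 500 genes or 10000 reads was left out first, which took 10 of 904. The comparison classes were 641 neuron nuclei, with at least 1 of Slc17a7, Gad1 and Rgs9 at that level and Mog under it. The other class was 81 oligodendrocyte nuclei, with at least 2 of Mog, Mag, Mobp, Cldn11 and Opalin at that level. In these, Slc17a7, Gad1 and Rgs9 each had to stay under 20 CPM. Both classes had to have fewer than 2 of the astrocyte genes at 20 CPM, so they too were chosen in part by low levels of those genes. The remaining 102 nuclei met none of the definitions.

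All nuclei came from C57Bl/6J mice that had received adeno-associated virus packaged in the PHP.eB capsid, which crosses from blood into brain, weeks before sorting. Every construct carried the DLX2.0 enhancer in front of a fluorescent protein joined to the histone H2B, and no uninjected group was among the samples. The 16 constructs in the sample titles were 6 RNA elements (BORG, 3xBORG, U7snRNAOPT, 3xU7snRNAOPT, U7snRNAOPT-3'box and 3xsmOPT) each placed after or before SYFP2-H2B, and SYFP2-10aa-H2Bmod, SYFP2-P2A-3XFLAG-H2B-SIRLOIN, SYFP2-P2A-3XFLAG-H2B and dTomato-H2B. Library names gave 3 sequencing pools, S40327, S40325 and S40317. The treatment labels gave 16 virus IDs that cross the titles, with 4 to 5 IDs under each title and 67 pairs of title and ID in all, so it cannot be told from the labels which of them names the virus a nucleus received. The title was used as the construct, and the ID as an alternative. No label names an animal, so a p-value below measures the spread between construct sums, which may be technical. Primary visual cortex is the labelled tissue of every nucleus, while the design text also names anterior lateral motor cortex and striatum. Among the 641 neuron nuclei, 275 (42.9%) had Rgs9, a signalling regulator abundant in striatal projection neurons, at 20 CPM or more.

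Astrocytes clear glutamate and potassium from around synapses, couple to each other through gap junctions, supply lipoproteins and lactate, and wrap vessels with endfeet that carry water channels. They arise from radial glia under Sox9, Nfia and Notch signalling, and they differ between brain regions in genes such as Crym and Agt. The DLX2.0 enhancer is built from an element of the Dlx5/Dlx6 locus, whose homeobox genes specify GABAergic neurons of the forebrain. Astrocytes are not among the cells it was built to mark.

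The astrocyte libraries held more reads but fewer genes than those of neurons, and more genes than those of oligodendrocytes in each of the constructs compared. They had a median of 286746 reads (103993 to 719419), against 256203 in neuron and 294581 in oligodendrocyte nuclei. They had a median of 1517.5 genes detected (505 to 2684), against 2894 in neurons and 1018 in oligodendrocytes. With every nucleus thinned to 100000 reads, which left out 4 neuron and 1 oligodendrocyte nuclei, the medians were 1404, 2733 and 935.5 genes. Over the 9 constructs with at least 3 nuclei of both classes, astrocyte nuclei had on average 1488 fewer genes than neuron nuclei, in 9 of 9 constructs (two-sided exact paired permutation test, p = 0.0039, the smallest that 9 pairs allow). They had 60599 more reads in the same 9 constructs (exact p = 0.0039). Against oligodendrocyte nuclei, over 5 constructs, they had 553.6 more genes in 5 of 5, at the smallest exact p that 5 pairs allow, 0.0625. All 70 libraries differed from each other, and the highest correlation between any pair was 0.388 (log2(CPM + 1), across genes, a description). Index pairs were reused between pools: 245 pairs occurred in more than 1 pool and touched 565 nuclei, 45 of them astrocytes. The 6 astrocyte nuclei of pool S40317 stood apart in quality, with a median of 3.69% mitochondrially encoded reads (2.41% to 8.93%), against 0.0596% in S40327 and 0.0629% in S40325. Their median share of Malat1 was 7.49%, against 20.3% and 24.2% in those pools. Neuron nuclei of S40317 showed the same difference, with 1.10% mitochondrial reads and 6.51% Malat1. Of these 6 nuclei, 4 came from BORG-SYFP2-H2B and are all of its astrocytes.

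**Figure D1:**
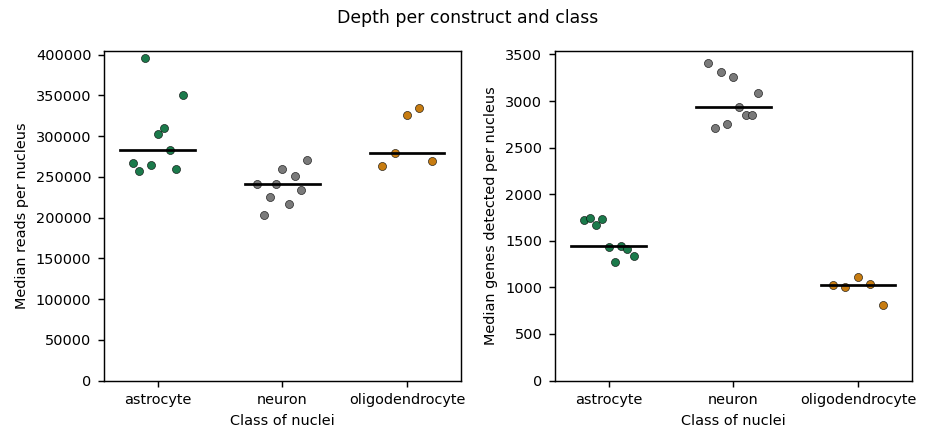
Median reads (left, number) and median genes detected (right, number) per nucleus, 1 point for each construct with at least 3 nuclei of the class, with a line at the median over constructs. The 9 astrocyte points for genes lie between 1270 and 1746, all under the 9 neuron points, and the 5 oligodendrocyte points lie under them again.

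The genes that chose the nuclei are given here as a description, with no test. Slc1a3, the glutamate and aspartate transporter GLAST, had reads in all 70 nuclei, between 404.9 and 12281 CPM with a median of 4550 CPM. Ntsr2, a neurotensin receptor of astrocytes, had reads in 69 and a median of 4557 CPM. Gja1, the gap junction protein connexin 43, had reads in 66 with a median of 1662 CPM. Slc7a10, a transporter of serine and other small neutral amino acids, had reads in 50 with a median of 475.9 CPM. Aqp4, the endfoot water channel, was the least often seen, with reads in 38 and a median of 63.98 CPM. At the level of the rule, 25 nuclei had all 5 genes, 32 had 4, 11 had 3 and 2 had 2. Slc17a7, Gad1, Rgs9 and Mog had 0 reads in all 70, although the rule allowed values under 20 CPM.

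Both nuclei just inside the rule had strong levels of the genes they passed on. One had 8445 CPM of Slc1a3 and 11519 CPM of Ntsr2 with 618 genes detected, and the other had 6041 CPM of Slc1a3 and 2303 CPM of Slc7a10 with 950 genes. The first also had 15390 CPM of the neuron marker Snap25, the highest of all members, and 0 reads of Aqp4, Gja1, Slc7a10 and Gjb6. Whether that library is mixed was not tested. Just outside the rule, 10 nuclei had a single astrocyte gene and none of the excluded ones, and that gene was Slc1a3 in 7 of them. A further 20 had at least 2 astrocyte genes together with an excluded gene, which was Rgs9 in 12, Gad1 in 10, Slc17a7 in 4 and Mog in 2, some with more than 1.

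Astrocyte nuclei were found under 13 of the 16 titles and were unevenly spread. The highest shares were 23.9% (11 of 46 nuclei; interval 12.6% to 38.8%) in SYFP2-H2B-3xsmOPT and 18.8% (9 of 48) in SYFP2-H2B-BORG. SYFP2-H2B-3xU7snRNAOPT had 8 of 47, 3xBORG-SYFP2-H2B 8 of 48, U7snRNAOPT-3'box-SYFP2-H2B 7 of 47 and SYFP2-10aa-H2Bmod 6 of 48. SYFP2-P2A-3XFLAG-H2B-SIRLOIN had 2 of 96 and SYFP2-P2A-3XFLAG-H2B 1 of 96. None was found in dTomato-H2B, where 0 of 92 nuclei allows a share of up to 3.26% (3 counts of the total, counting error only; the exact interval reaches 3.93%), or in 3xsmOPT-SYFP2-H2B and SYFP2-H2B-U7snRNAOPT-3'box, where 0 of 48 allows up to 6.25%. By virus ID the shares ran between 0% (AiP11985 and AiP14219) and 19.1% (AiP14796).

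**Figure D2:**
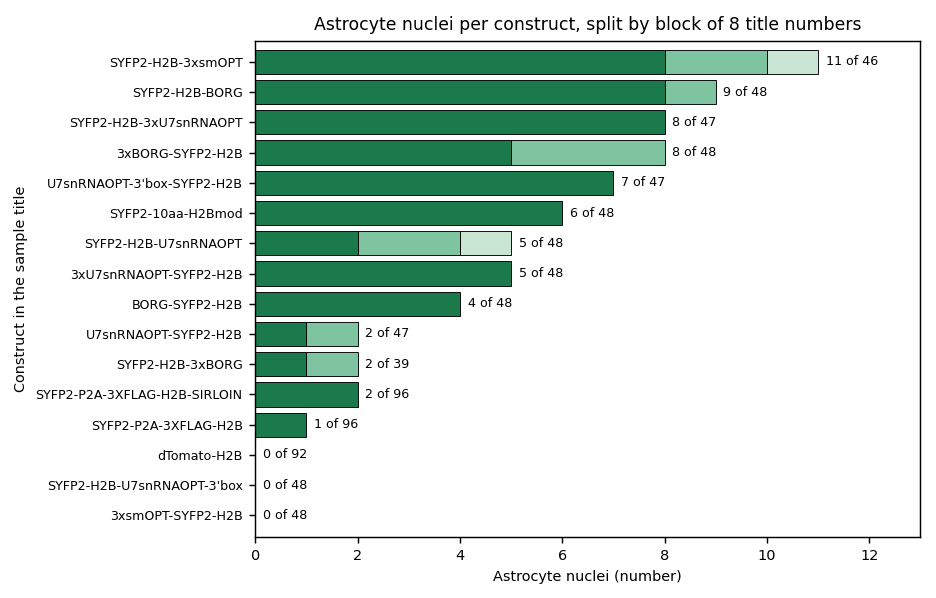
Number of astrocyte nuclei for each construct in the sample titles, with the number of kept nuclei beside each bar. Each shade within a bar is 1 block of 8 consecutive title numbers, and most long bars consist of 1 or 2 blocks.

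The nuclei of a construct are numbered in the titles, and the astrocytes sat close together in that numbering. Cut into blocks of 8 consecutive numbers, the 904 nuclei form 113 blocks, none with more than 1 virus ID and 2 with nuclei of 2 pools. Astrocytes were in 21 blocks, and 8 blocks with at least 4 of them held 51 of the 70. In 3 blocks all 8 nuclei were astrocytes: 9 to 16 of SYFP2-H2B-3xsmOPT, 9 to 16 of SYFP2-H2B-3xU7snRNAOPT and 17 to 24 of SYFP2-H2B-BORG. Those 8 blocks held 7 neuron nuclei and 0 oligodendrocyte nuclei. For 7 of the 13 constructs with astrocytes, all of them were in 1 block. Oligodendrocytes were clustered in other blocks, with 65 of 81 in 10 blocks of at least 5. What a block was at the bench is not in the labels. The uneven shares by construct therefore rest on few blocks, and construct and block cannot be told apart.

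Shares did not differ detectably with the position of the element. Over the 6 elements they averaged 12.54% ± 8.997 with the element after SYFP2-H2B and 9.094% ± 6.315 with it before (SD, n = 6 each), a difference of 3.44 percentage points. In 4 of 6 elements the later position had the higher share (two-sided exact paired permutation p = 0.594; smallest possible 0.0313). Without 3xsmOPT, which had 23.9% after and 0% before, the difference was -0.65 points. Between pools, 47 of 385 nuclei were astrocytes in S40327 (12.2%), 17 of 402 in S40325 (4.23%) and 6 of 107 in S40317 (5.61%). Over construct and pool units of at least 8 nuclei, S40327 averaged 11.1% ± 10.8 (SD, n = 15) and S40325 7.79% ± 16.7 (SD, n = 11). The permutation test took the units as independent, although several constructs have units in both pools, and that pairing was not used. The difference of 3.29 points was within the spread between units (two-sided permutation test, p = 0.561). Leaving out SYFP2-H2B-3xsmOPT made it 7.32 points, and leaving out U7snRNAOPT-3'box-SYFP2-H2B 6.34. Leaving out SYFP2-10aa-H2Bmod or SYFP2-P2A-3XFLAG-H2B-SIRLOIN made it 1.51. Titles ending in BC held 67 astrocytes of 610 nuclei (10.98%), and the others 3 of 284 (1.06%). The same split within S40325 gave 16 of 134 (11.9%) and 1 of 268 (0.373%). Of those 16, 8 were in 1 block of SYFP2-H2B-3xsmOPT and 7 in 1 block of U7snRNAOPT-3'box-SYFP2-H2B. Virus ID AiP14219, found under both title forms, had 0 astrocytes of 96 nuclei. Title form thus cannot be fully told apart from block or virus ID. Only some constructs carry each title form, so no test of it was made.

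Astrocyte nuclei were compared with neuron nuclei of the same 9 constructs, using reads summed per construct and class (63 astrocyte nuclei, 4 to 11 per sum, and 255 neuron nuclei, 23 to 36 per sum). Block was not matched within a construct: the 8 blocks with at least 4 astrocytes held 51 of all 70 astrocytes and 7 neuron nuclei. Class therefore cannot be fully told apart from block, virus ID or pool in this comparison. The glutamate transporter Slc1a2, the aldolase Aldoc, the lipoprotein Apoe and the transcription regulator Id2 were among the genes higher in astrocytes. The homeobox gene Dlx1 and the noncoding RNA Meg3 were among the genes lower. Of 15284 genes tested with edgeR's quasi-likelihood test, 561 were higher (3.67%) and 8067 lower (52.8%) at a Benjamini-Hochberg adjusted p under 0.05, and the median log2 fold change over all genes was -5.15. The astrocyte sums held fewer nuclei, with fewer genes detected in each, and the part of this in the lower count was not tested. Of the 8067 lower genes, 2864 had 0 reads in every astrocyte sum. Such genes passed the low count filter through the neuron sums alone, so they could not have come out higher. Likewise, 177 of the 561 higher genes had 0 reads in every neuron sum, Lcat, Mfsd2a and Ednrb among them. These passed the filter through the astrocyte sums alone, so they could not have come out lower. With equal numbers of nuclei in both classes, a setting chosen after seeing the data, 534 genes were higher and 2452 lower with a median of -2.53. Of the 561 higher genes 419 were called again there (74.7%), and of the 8067 lower genes 2448 (30.3%). Without pool S40317 the lower count was 5221. Where most sums of 1 class hold 0 reads, the fitted fold change exceeds the ratio of the levels, so levels are given for such genes. A fold given as "at least" sets the class without reads to 3 reads over all its sums. It covers counting error in the pooled reads only, and not the spread between nuclei or sums.

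Of 20 transporters tested, 11 were higher, 1 was lower and 8 were not called, with a median log2 fold change of 4.70 against -5.15 for all genes. Over all genes, 3.67% were higher and 52.8% lower, and the list counts below are to be read beside these shares. Slc1a2, the main glutamate transporter GLT-1, had 2684, 4161 and 5371 CPM (lowest, median and highest of 9 astrocyte sums), against 14.8, 117 and 333 CPM in neuron sums. The sums did not overlap, and the log2 fold change was 5.08 ± 0.44 (SE; edgeR adjusted p = 1.35e-15). Slc27a1, a fatty acid transport protein, had 267.7, 1284 and 1762 CPM in astrocytes, against 2.74, 27.6 and 77.7 CPM in neurons. Slco1c1, a thyroid hormone and organic anion carrier, had 979.6, 1739 and 4342 CPM in astrocytes, while the highest neuron sum had 3.81 CPM. The glutamine exporter Slc38a3 was higher too (468.7 to 1631 CPM, against at most 6.69 CPM), as was the zinc carrier Slc39a12 (395.7 to 1239 CPM, against at most 7.87 CPM). Slc38a1, a glutamine importer of neurons, was the transporter that was lower, with 0 reads in all 9 astrocyte sums against 88.5 to 346 CPM in neurons, at least 1280-fold lower.

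Among genes of gap junctions and potassium handling, 9 of 17 tested were higher and 1 lower (median log2 fold change 1.73). Gjb6, the gap junction protein connexin 30, had 405.9, 853 and 3142 CPM in astrocytes, against 0, 0 and 15.8 CPM in neurons. Mlc1, a membrane protein of perivascular endfeet, had 130.8, 674 and 1426 CPM, against 0, 0 and 31.8 CPM. Dtna, the dystrophin partner dystrobrevin alpha, differed less, with 553, 1127 and 2809 CPM against 174, 239 and 308 CPM (log2 fold change 1.98 ± 0.57, SE; edgeR adjusted p = 0.0030). The inward rectifiers Kcnj10 and Kcnj16, Gjb2, Kcnk1, Hepacam and Ttyh1 were the other higher genes. Kcnd2, an A-type potassium channel of neurons, was lower.

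Metabolic genes had the largest number of higher members, 22 of 35 tested, with 3 lower and a median log2 fold change of 3.30. Aldoc, the glial form of the glycolytic enzyme aldolase, had 2100, 3833 and 10394 CPM in astrocytes, against 16.8, 59.7 and 183 CPM in neurons (5.52 ± 0.44 log2, SE; edgeR adjusted p = 5.42e-17). Mt1, a metallothionein that binds zinc and copper, had 710, 2264 and 11002 CPM, against 30.1, 80.3 and 146 CPM. Pla2g7, a lipase acting on oxidised phospholipids, had 1434, 1904 and 3264 CPM, against 10.2, 43.8 and 95.8 CPM. Glul, which makes glutamine from glutamate, was also higher, with a median of 565 CPM against 13.8 CPM, and so was Aldh1l1 of folate metabolism, with 85.2 CPM against 0. Aldh5a1, Gys1 and Pcx were lower. Pcx, pyruvate carboxylase, is described as an astrocyte enzyme. It had 165 reads in the sums of 63 astrocyte nuclei and 1405 in those of 255 neuron nuclei. These are raw reads, not scaled for the larger neuron sums.

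Of the lipoprotein and sterol genes, 9 of 26 tested were higher and 2 lower, with a median log2 fold change of 1.91. Apoe, the main lipoprotein of the brain, had 5743, 18021 and 38144 CPM in astrocytes, against 5.81, 44.9 and 164 CPM in neurons (8.26 ± 0.75 log2, SE; edgeR adjusted p = 6.91e-05). Clu, the secreted chaperone clusterin, had reads in all 70 astrocyte nuclei, and its sums had 3929, 15868 and 17827 CPM against 151, 288 and 452 CPM (5.06 ± 0.29 log2, SE; edgeR adjusted p = 3.17e-25). Msmo1, an enzyme of cholesterol synthesis, had 1107, 1893 and 2359 CPM against 59.7, 135 and 184 CPM. Lcat, which esterifies cholesterol on lipoproteins, had 69.3, 282 and 1309 CPM in astrocytes and 0 reads in all 9 neuron sums, at least 9722-fold higher. The lower genes were Lpl and Scap.

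**Figure D3:**
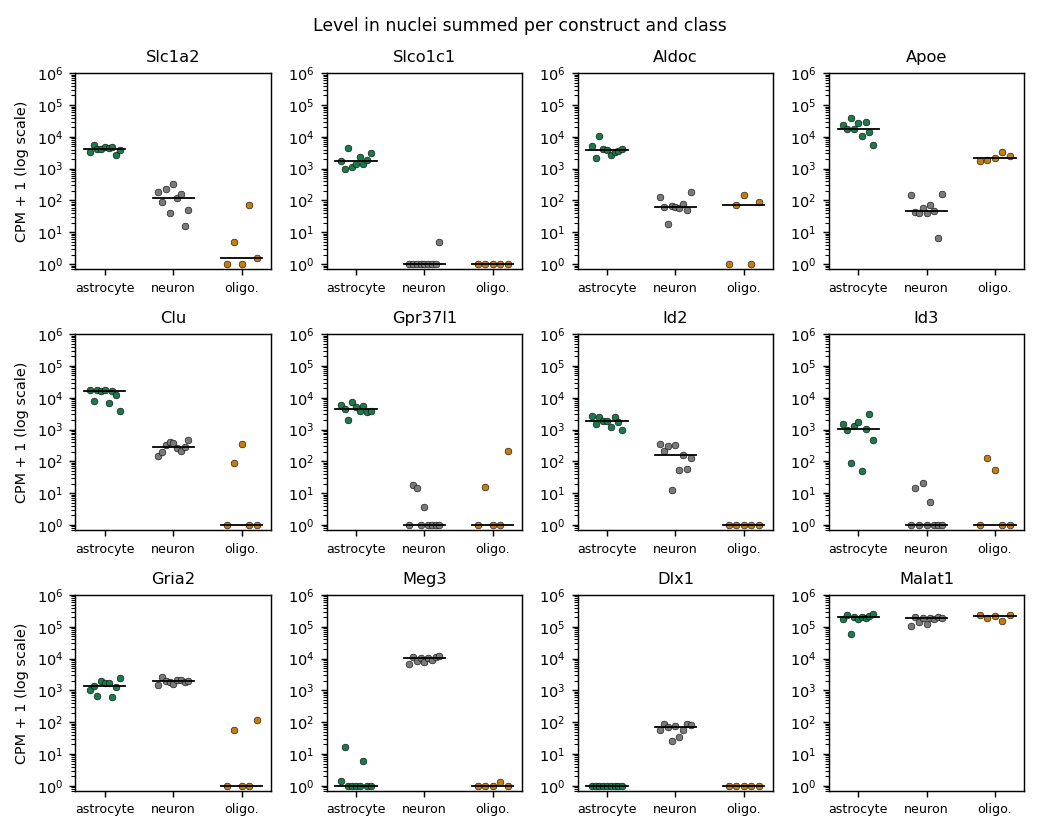
Level in CPM + 1 (log axis) of 12 genes in nuclei summed per construct, for 9 astrocyte, 9 neuron and 5 oligodendrocyte sums, with lines at the medians. Points at 1 are sums with 0 reads, which is where all astrocyte sums lie for Dlx1 and most for Meg3, while Malat1 overlaps between the classes.

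Receptors were called in both directions. Of 36 tested, 15 were higher and 7 lower (median log2 fold change 1.68), where 3.67% of all genes were higher and 52.8% lower. Gpr37l1, an orphan receptor of astrocytes, had 2055, 4271 and 7444 CPM in astrocytes, against at most 16.9 CPM in neurons. S1pr1, a sphingosine phosphate receptor, had 1342, 2071 and 3520 CPM, against at most 39.5 CPM. Fgfr3, Ednrb, Grm3, Gabrb1, Gabrg1, Bmpr1b, Notch1 and Ntrk2 were among the other higher receptors, and Ednrb had 0 reads in the neuron sums. The 7 lower were Grm5, Gria1, Gria2, Adora1, Adra1a, Adra1b and Cnr1. Grm5, a metabotropic glutamate receptor, had 121 reads over all astrocyte sums and a highest sum of 26.8 CPM, against 371.5 to 1049 CPM in neurons. Gria2, the AMPA receptor subunit that makes the channel impermeable to calcium, was close to the neuron level. It had 624, 1358 and 2528 CPM in astrocytes and 1506, 1999 and 2595 CPM in neurons, with overlapping sums, and 62 of 70 astrocyte nuclei had reads. Its log2 fold change of -0.89 ± 0.37 (SE; edgeR adjusted p = 0.0365) did not pass in 9 of 20 alternatives. These were leaving out 3xBORG-SYFP2-H2B, 3xU7snRNAOPT-SYFP2-H2B or SYFP2-H2B-BORG (adjusted p = 0.0584, 0.0712 and 0.0822), DESeq2 (0.648), equal numbers of nuclei (0.253) and 4 others (0.0535 to 0.0587).

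Transcription factors included 19 higher of 42 tested and 1 lower, Hey1, with a median log2 fold change of 2.57 (2.85 with genes at 0 reads set to their bound). Id2, an inhibitor of basic helix-loop-helix factors, had 994, 1797 and 2666 CPM in astrocytes, against 11.3, 153 and 342 CPM in neurons (3.44 ± 0.56 log2, SE; edgeR adjusted p = 4.57e-06). Id3, a related inhibitor, had 50.2, 1070 and 3091 CPM, against at most 19.99 CPM. Zbtb20, a zinc finger repressor of glia and hippocampal neurons, had 698, 879 and 1529 CPM, against 94.3, 243 and 405 CPM. Sox9, which drives gliogenesis, had 33.1, 288 and 371 CPM, against at most 2.47 CPM. Nfia, Hes5, Rorb, Pax6, Emx2, Gli1, Gli2, Rfx4 and Tcf7l2 were also higher.

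Of the adhesion and secreted synaptogenic genes, 18 of 38 tested were higher and 6 lower (median log2 fold change 1.32). Cst3, the secreted protease inhibitor cystatin C, had reads in all 70 nuclei and sums of 5996, 10978 and 43816 CPM, against 150, 295 and 402 CPM in neurons (5.30 ± 0.27 log2, SE; edgeR adjusted p = 1.51e-27). Sparcl1, also called hevin, which promotes synapse formation, had 1789, 4930 and 7475 CPM, against 205, 480 and 947 CPM. Cpe, a peptide processing enzyme also used by neurons, had 2688, 4333 and 5704 CPM, against 503, 618 and 1238 CPM (2.20 ± 0.33 log2, SE; edgeR adjusted p = 7.88e-07). The lower genes were Thbs2, Gpc4, Vcan, Tnr, Nlgn1 and Nlgn2.

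Genes linked to reactive or perivascular astrocytes were called in both directions, where 3.67% of all genes were higher and 52.8% lower. Of 16 tested, 6 were higher (Gfap, C4b, S100b, Tnc, Id3 and Aqp9) and 4 lower (Serpina3n, S100a10, Fbln5 and Fkbp5). Of the 34 genes of that list, 18 did not pass the filter on low counts. Gfap, the intermediate filament of reactive astrocytes, had reads in 10 of 70 nuclei, and its sums had 0, 0.464 and 645 CPM against 0, 0 and 10.6 CPM in neurons. S100b, a calcium binding protein, had 126, 195 and 491 CPM against 0, 7.46 and 26.9 CPM. Vim, another filament gene, had 0, 0 and 60.8 CPM against 0, 0 and 11.02 CPM and was not called. Of 17 interferon and antigen presentation genes tested, H2-K1, a class I histocompatibility gene, was higher and 6 were lower (Ifit1, Ifit2, Irf9, Stat2, Ifnar1 and Ifnar2), with a median log2 fold change of -3.62. That lower count, 6 of 17, is a smaller share than the 52.8% of all genes, and the median lies above the -5.15 of all genes. H2-K1 had reads in 18 of 70 astrocyte nuclei and 14 of 641 neuron nuclei. All samples had received virus, so the response to the virus itself cannot be read from this comparison.

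**Figure D4:**
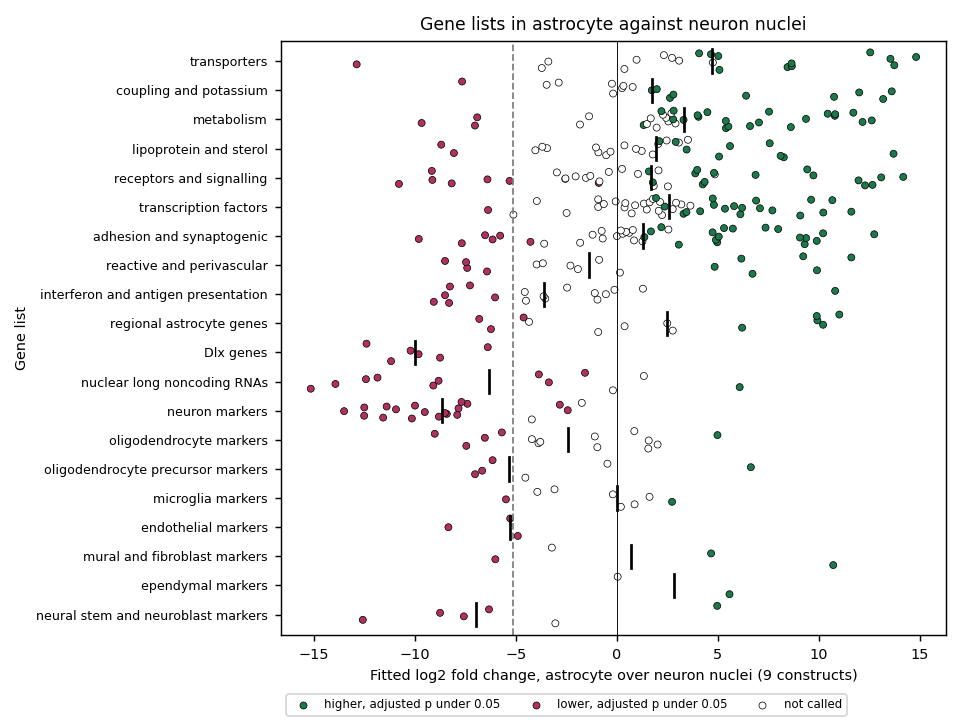
Fitted log2 fold change of astrocyte over neuron sums (9 constructs) for each tested member of 20 gene lists; black bars are list medians and the dashed line is the median of all tested genes, -5.15. Transporter and metabolism genes lie mostly right of 0, while Dlx genes and neuron markers lie left of it; points with 0 reads in 1 class depend on the model's prior count.

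The 6 genes of the Dlx loci were all lower in astrocytes (6 of 6 tested, median log2 fold change -10.0, or -7.49 with genes at 0 reads set to their bound), where 52.8% of all genes were lower with a median of -5.15. Dlx1, Dlx2, Dlx5, Dlx6 and Dlx6os1 had 0 reads in all 70 astrocyte nuclei, and 0 of 70 allows a share of nuclei with reads of up to 4.29%. These genes passed the low count filter through the neuron sums alone, so they could not have come out higher. The classes were also chosen in part on the neuron genes Gad1 and Rgs9, so the count of 6 is a description. Dlx1, a homeobox gene of GABAergic neurons, had 25.4, 67.3 and 87.6 CPM in neuron sums, so it was at least 392-fold lower in astrocytes. Dlx6os1, the noncoding RNA of the same locus as Dlx5 and Dlx6, had 53.9, 126 and 329 CPM in neurons and was at least 920-fold lower. Dlx2, a related homeobox gene, had 0.924, 11.6 and 27.4 CPM in neurons and was at least 90.1-fold lower, and it lost its call with equal numbers of nuclei (adjusted p = 0.0991). Dlx1as, which had reads in 3 astrocyte nuclei, lost its call there too (0.243) and without the construct as a block (0.196). The kit does not mark strand, so reads of antisense genes cannot be told apart from those of their partners. In the neuron class itself 122 of 641 nuclei had reads of Dlx1.

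Among nuclear long noncoding RNAs, 1 of 12 tested was higher and 9 lower (median log2 fold change -6.33), where 3.67% of all genes were higher and 52.8% lower with a median of -5.15. Meg3, an imprinted noncoding RNA abundant in neurons, had 33 reads over the 9 astrocyte sums and at most 15.3 CPM, against 6779, 10405 and 12148 CPM in neurons. Snhg11 had 155 reads and at most 54.3 CPM, against 8700 to 14448 CPM. Malat1 did not differ detectably, with 58633, 206799 and 258775 CPM against 102443, 186667 and 207881 CPM (-0.19 ± 0.23 log2, SE; edgeR adjusted p = 0.481). Neat1, which scaffolds nuclear paraspeckles, was the 1 higher gene, with 16.97, 239 and 806 CPM against 0, 3.28 and 78.4 CPM. Mir99ahg, a microRNA host transcript, had 61.4, 946 and 1248 CPM against 167, 229 and 345 CPM and was not called (adjusted p = 0.085). Gas5, a snoRNA host gene, was lower with an adjusted p of 0.0347, which became 0.0515 to 0.0894 with 1 of 5 constructs left out, namely 3xBORG-SYFP2-H2B, 3xU7snRNAOPT-SYFP2-H2B, SYFP2-10aa-H2Bmod, SYFP2-H2B-3xU7snRNAOPT or SYFP2-H2B-BORG.

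The genes with the largest called folds outside the marker lists were mostly named above. Mfsd2a, a lipid transporter best known from brain endothelium, had 0, 571 and 1162 CPM in astrocytes and 0 reads in neurons (at least 11016-fold higher). Cyp4f15, a cytochrome of fatty acid oxidation, had 0, 515 and 740 CPM against 1 read in the neuron sums. On the lower side, Opcml, a neuronal cell adhesion molecule, had 0 reads in astrocyte sums against 604 to 1315 CPM in neurons, at least 6194-fold lower. Dlg2, Gria3, Trank1, Slc24a2 and Csmd3 also had 0 reads in astrocytes and were at least 2590-fold to 2947-fold lower; they include a postsynaptic scaffold, an AMPA receptor subunit and a sodium and calcium exchanger. Npy, a neuropeptide of interneurons, had 950 reads in astrocyte sums and 0, 0 and 393 CPM, against 70.1, 2132 and 7399 CPM.

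Against oligodendrocyte nuclei of 5 constructs (35 astrocyte nuclei, 5 to 9 per sum, and 51 oligodendrocyte nuclei, 7 to 15 per sum), fewer genes were called. Of all 70 astrocyte nuclei, 6 were in blocks that held oligodendrocyte nuclei, so here too class cannot be fully told apart from block. The constructs are given below in the order 3xBORG-SYFP2-H2B, 3xU7snRNAOPT-SYFP2-H2B, SYFP2-H2B-3xU7snRNAOPT, SYFP2-H2B-BORG and SYFP2-H2B-U7snRNAOPT. Of 9493 genes tested, 147 were higher in astrocytes (1.55%) and 97 lower (1.02%), with a median log2 fold change of 0.19. DESeq2 called 1352 and 1038. With 1 construct left out, edgeR called 72 to 95 higher and 54 to 69 lower: 78 were higher without 3xBORG-SYFP2-H2B, 89 without 3xU7snRNAOPT-SYFP2-H2B, 79 without SYFP2-H2B-3xU7snRNAOPT, 72 without SYFP2-H2B-BORG and 95 without SYFP2-H2B-U7snRNAOPT. The lower count was 54 without 3xU7snRNAOPT-SYFP2-H2B, 61 without SYFP2-H2B-3xU7snRNAOPT and 62 without SYFP2-H2B-BORG. With equal numbers of nuclei 114 were higher and 57 lower. Of 9329 genes tested in both comparisons, 106 were higher in astrocytes in both, which share their astrocyte sums.

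The largest folds in this comparison belonged to genes without reads in oligodendrocytes. Such genes passed the low count filter through the astrocyte sums alone, so they could not have come out lower. F3, tissue factor, which starts blood clotting, had 5235, 2523, 3899, 3629 and 4340 CPM in the astrocyte sums of the 5 constructs and 0 reads in all 5 oligodendrocyte sums, at least 20288-fold higher. Bcan, the matrix proteoglycan brevican, had 2544, 1600, 3398, 2874 and 3488 CPM in astrocytes and 0 reads in oligodendrocytes, at least 14467-fold higher. S1pr1, Pla2g7, Id2, Gm3764, Slco1c1, Ntrk2, Ptprz1 and Acsbg1 likewise had 0 reads in every oligodendrocyte sum. Their bounds lay between 5375-fold and 11123-fold.

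By role, 9 of 18 transporters tested were higher and none lower (median log2 fold change 9.69, or 8.67 with bounds). Over all genes, 1.55% were higher and 1.02% lower, and the list counts here are to be read beside these shares. Of the 147 higher genes, 95 had 0 reads in every oligodendrocyte sum and could not have come out lower. Slc1a2 had 3369, 5371, 4748, 4929 and 2684 CPM in astrocytes against 0, 3.91, 0, 72.8 and 0.609 CPM in oligodendrocytes. It was called (edgeR adjusted p = 2.06e-06), but not without 3xU7snRNAOPT-SYFP2-H2B (0.493) or SYFP2-H2B-U7snRNAOPT (0.558), although the sums did not overlap. Slc27a1 had 1048, 1602, 1762, 1649 and 347 CPM, against 130, 15.1, 0, 0 and 1.52 CPM; it was called (edgeR adjusted p = 7.67e-06), but not without the construct as a block (0.182). Coupling and potassium genes had 4 of 15 higher (Gjb6, Kcnk1, Mlc1 and Dmd), metabolism 10 of 34 higher and 1 lower, lipoprotein and sterol genes 5 of 26 higher, receptors 10 of 29, transcription factors 7 of 35 and adhesion genes 10 of 33. The last 4 lists had no lower member. Their medians were 7.08, 9.34, 3.04, 10.8, 6.81 and 7.94 log2, against 0.19 for all genes.

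Several genes called against neurons were shared with oligodendrocytes at a lower level. Apoe had 24452, 17796, 26824, 30018 and 14199 CPM in astrocytes against 1680, 1908, 2239, 3246 and 2477 CPM in oligodendrocytes (3.37 ± 0.27 log2, SE; edgeR adjusted p = 3.41e-31; DESeq2 adjusted p = 0.0705, and 0.169 with the treatment ID as the sample). Htra1, a secreted serine protease, had 5611, 2912, 4329, 6019 and 4645 CPM against 347, 384, 113, 622 and 114 CPM (4.26 ± 0.60 log2, SE; edgeR adjusted p = 3.91e-10). Glul, often used to mark astrocytes, overlapped, with 867, 175, 996, 727 and 334 CPM against 583, 182, 482, 393 and 617 CPM (0.42 ± 1.16 log2, SE; edgeR adjusted p = 0.993). Clu and Aldoc were not called either, although their sums did not overlap: Clu had 7695 to 17499 CPM against at most 360 CPM, and Aldoc 2100 to 5128 CPM against at most 144 CPM. Gria2 was higher in astrocytes, with 1011, 1358, 1713, 624 and 1298 CPM against 0, 56.4, 0, 0 and 120 CPM, but was not called without the construct as a block (adjusted p = 0.305).

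The 97 genes lower in astrocytes included several of myelin. Of 13 oligodendrocyte markers tested, 9 were lower (Mbp, Ermn, Ugt8a, Mal, Aspa, Tspan2, St18, Gjb1 and Gjc3) and none higher, with a median log2 fold change of -9.99. Over all genes, 1.02% were lower and 1.55% higher. The oligodendrocyte class was itself chosen by myelin genes, so the count of 9 is a description. Of the 97 lower genes, 52 had 0 reads in every astrocyte sum, Ugt8a, Mal and St18 among them, and could not have come out higher. Mbp, myelin basic protein, had 367, 1716, 862, 1085 and 1720 CPM in astrocytes and 7079, 7994, 6954, 8273 and 10396 CPM in oligodendrocytes (-2.91 ± 0.43 log2, SE; edgeR adjusted p = 2.48e-09), a call that was lost under DESeq2 (0.0597) and with the treatment ID as the sample (0.252). Car2, carbonic anhydrase 2, had 271, 32.3, 426, 231 and 490 CPM against 2631, 3372, 4419, 3648 and 3112 CPM. Neat1 was lower here and was higher against neurons: it had 240, 136, 16.97, 252 and 239 CPM in astrocytes and 2867, 2015, 3938, 3811 and 2708 CPM in oligodendrocytes (-4.28 ± 0.78 log2, SE; edgeR adjusted p = 6.46e-06). Hapln2, a link protein of the matrix at nodes of Ranvier, had 0 reads in astrocytes and 1409 to 3045 CPM in oligodendrocytes, at least 6474-fold lower. C030029H02Rik, Tmeff2, Edil3, Slc38a2, Slc24a2, Pex5l, Polr3e, Slc12a2 and St6galnac3 also had 0 reads in astrocytes.

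Markers of other cells were read over the 70 nuclei. Of 20 neuron markers, 15 had reads in at least 1 astrocyte nucleus, and Slc17a6, Grin2a, Ryr2, Drd2 and Adora2a were at 0. The summed level of the list was 0 to 20369 CPM with a median of 749 CPM, against a median of 6616 CPM in neuron nuclei. Snap25, a synaptic vesicle fusion protein, had reads in 21 nuclei with up to 15390 CPM, and Penk, the enkephalin precursor, in 19. In the tests against neurons 18 of 20 were lower, where 52.8% of all genes were lower. The neuron class was itself chosen by neuron genes, so the count of 18 is a description. Snap25 (0, 178 and 2318 CPM against 1362, 1749 and 3666 CPM) and Ppp1r1b were not called. Penk lost its call without BORG-SYFP2-H2B (adjusted p = 0.251) and in 7 other alternatives (up to 0.429). Of 17 oligodendrocyte markers 12 had reads; the sum was 0 to 12622 CPM with a median of 1191 CPM, against 54131 CPM in oligodendrocytes. Mbp had reads in 33 nuclei and Mobp, which formed part of the oligodendrocyte rule, in 20. Opalin, Cldn11, Ugt8a, Mal and St18 were at 0.

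Reads of markers of further glia and vessels were sparse. Of 10 precursor markers 6 had reads (sum 0 to 3033 CPM, median 0), with Cspg4, C1ql1, Gpr17 and Sox10 at 0. Of 12 microglia markers 6 had reads (0 to 1104 CPM, median 0), with Cx3cr1, P2ry12, Tmem119, Aif1, Tyrobp and Itgam at 0. Of 9 endothelial markers 3 had reads (0 to 547 CPM), and Cldn5, Flt1 and Cdh5 were among those at 0. Of 10 mural and fibroblast markers 3 had reads (0 to 1042 CPM), mainly Pdgfrb, a receptor of pericytes, in 25 nuclei, with Vtn, Rgs5 and Kcnj8 at 0. Pdgfrb and Col1a1 were higher than in neurons, and Rgs5 was lower. Col1a1 lost its call under DESeq2 (adjusted p = 0.169), with equal numbers of nuclei (0.207) and without the S40325 blocks of at least 4 astrocytes (0.0637). Pdgfrb was also higher than in oligodendrocytes, a call lost in 8 of 15 alternatives. Of 6 ependymal markers 3 had reads (0 to 350 CPM), and of 7 stem cell and neuroblast markers 3 (0 to 1577 CPM), with Dcx, Dlx2, Mki67 and Top2a at 0. From the other lists, the oligodendrocyte marker Aspa, Olig1, C1qc, Rarres2 and Thbs4 were also higher than in neurons. Rarres2 lost its call in 2 of 19 alternatives and Thbs4 in 1. Lower than in neurons were 4 of 14 oligodendrocyte markers tested, 3 of 6 precursor, 1 of 8 microglia and 3 of 3 endothelial markers. Of the stem cell and neuroblast markers tested, 4 of 6 were lower. These counts are to be read beside the 52.8% of all genes that were lower. The part of other cells' RNA in the results above was not tested.

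Genes that varied most between the 70 nuclei, among those with reads in 25% to 75% of them, were mt-Cytb, Mbp, Smpdl3a, Fth1, Atp5b, mt-Nd1, Saraf, Hacd3, Ctsb and Dhrs7. Their SD of log2(CPM + 1) lay between 5.02 and 5.30, and by that choice each had 0 reads in at least 25% of the nuclei. Smpdl3a, a phosphodiesterase, had reads in 39 astrocyte nuclei, 28 of 641 neuron nuclei and 1 of 81 oligodendrocyte nuclei. Clu and Cst3 varied less than these, with reads in every nucleus and SDs of 1.18 and 1.01.

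Pool S40327 was compared with S40325 over 8 construct sums against 2. Both S40325 sums, SYFP2-H2B-3xsmOPT and U7snRNAOPT-3'box-SYFP2-H2B, consist of 1 block each, so pool, construct and block cannot be told apart. Of 8797 genes tested, 4 were higher in S40327 (0.0455%) and 2 lower (0.0227%), against 1023 and 122 with DESeq2. Apoe had 14199, 20257 and 30018 CPM (lowest, median and highest of 8 sums) in S40327, against 7194 and 5743 CPM in S40325 (1.58 ± 0.23 log2, SE; edgeR adjusted p = 5.11e-07). Clu had 7695, 14263 and 17499 CPM, against 5623 and 3929 CPM (1.38 ± 0.26 log2, SE; edgeR adjusted p = 3.81e-04). Neither pool's sums overlapped for these genes. For SYFP2-H2B-3xsmOPT, the 1 construct with sums in both pools, Apoe had 22492 CPM in S40327 and 7194 CPM in S40325, and Clu 12657 CPM and 5623 CPM.

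Crym, mu-crystallin, which binds thyroid hormone and is abundant in striatal astrocytes, had 0, 694 and 1585 CPM in S40327 and 0 reads in S40325, at least 1783-fold higher. The sums overlapped at 0, since the S40327 sum of SYFP2-H2B-3xsmOPT also had 0 reads. Tcn2, which carries vitamin B12, had 218, 429 and 1097 CPM in S40327 and 0 reads in S40325, at least 856-fold higher. Bloc1s6, of lysosome-related organelle biogenesis, and Rpp40, of ribonuclease P, had 0 reads in the 8 S40327 sums. They had 770 and 245 CPM, and 502 and 212 CPM, in the SYFP2-H2B-3xsmOPT and U7snRNAOPT-3'box-SYFP2-H2B sums of S40325. These were at least 2199-fold and 1540-fold lower.

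Every one of these 6 calls was lost with some 1 construct left out; SYFP2-H2B-3xsmOPT has a sum in each pool, and both were left out together. Without SYFP2-P2A-3XFLAG-H2B-SIRLOIN, a sum of 2 nuclei, 11 genes were higher, but Crym (adjusted p = 0.249), Apoe (0.417) and Clu (0.417) were not among them. Without SYFP2-H2B-3xsmOPT no gene was lower (Bloc1s6 and Rpp40, 0.343), and Tcn2 was not called (0.169). Without U7snRNAOPT-3'box-SYFP2-H2B the counts were 2 higher and 5 lower, without Apoe (0.119), Clu (0.375), Tcn2 (0.238) or Rpp40 (0.0989). Rpp40 also lost its call, which left 1 lower gene, without 3xBORG-SYFP2-H2B, 3xU7snRNAOPT-SYFP2-H2B, SYFP2-10aa-H2Bmod, SYFP2-H2B-3xU7snRNAOPT, SYFP2-H2B-BORG or SYFP2-H2B-U7snRNAOPT (0.0655 to 0.118).

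Single nuclei of the 8 blocks with at least 4 astrocytes showed how these genes were distributed; Id3, Penk, Ppp1r1b, Snap25, Gjb6 and mt-Cytb were added after their values were seen and have no test here. Crym had reads in 5 of 5 nuclei of 3xBORG-SYFP2-H2B 17 to 24, 1 of 5 of 3xU7snRNAOPT-SYFP2-H2B 17 to 24, 3 of 6 of SYFP2-10aa-H2Bmod 33 to 40, 6 of 8 of SYFP2-H2B-3xU7snRNAOPT 9 to 16 and 6 of 8 of SYFP2-H2B-BORG 17 to 24. It had reads in 0 of 8 and 0 of 7 nuclei of the S40325 blocks and in 0 of 4 of the S40317 block. Over all 70 nuclei, Crym had reads in 24 of 47 in S40327, 0 of 17 in S40325 and 0 of 6 in S40317.

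Id3 had reads in 5 of 5, 5 of 5, 5 of 6, 7 of 8 and 7 of 8 nuclei of the S40327 blocks, against 0 of 8 and 3 of 7 in the S40325 blocks. Penk and Ppp1r1b, a phosphatase inhibitor of striatal neurons, had reads in 19 and 25 of the 47 S40327 nuclei and in 0 of the 17 S40325 nuclei. Snap25 ran the other way, with 10 of 47 nuclei in S40327 and 11 of 17 in S40325. Gjb6 had reads in 31 of 47 nuclei of S40327, 15 of 17 of S40325 and 6 of 6 of S40317. In the test over sums, Id3, Penk, Ppp1r1b, Snap25 and Gjb6 did not pass between S40327 and S40325 (edgeR adjusted p between 0.252 and 0.415). The neuron nuclei sorted in the same pools carry Penk, Ppp1r1b and Snap25, and the part of their RNA in these reads was not tested.

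**Figure D5:**
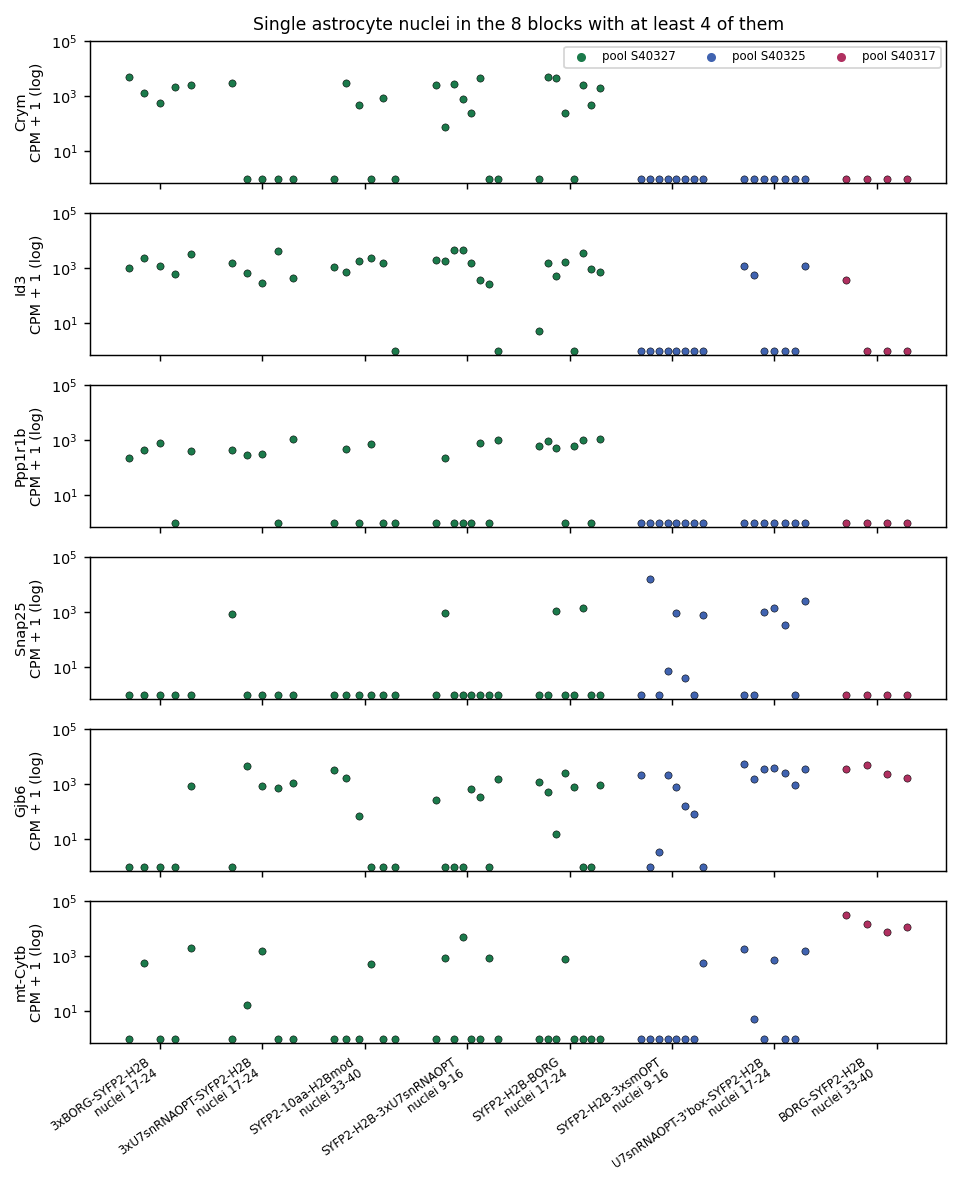
CPM + 1 (log axis) of 6 genes in every astrocyte nucleus of the 8 blocks with at least 4 of them, coloured by pool, 1 column of points per nucleus. Crym and Ppp1r1b lie at 0 reads in all nuclei of the S40325 and S40317 blocks, and mt-Cytb is high in all 4 nuclei of the S40317 block.

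Within astrocytes, the position of the RNA element was compared over the 4 elements with at least 2 nuclei in both positions (3xBORG, 3xU7snRNAOPT, BORG and U7snRNAOPT). Of 7742 genes tested with edgeR, 0 were called in either direction (0% and 0%), 20 had an unadjusted p under 0.05, and DESeq2 called 289 higher and 205 lower with the element after. The smallest p belonged to Hsd11b1, which activates glucocorticoids. It had 22.1, 0, 0 and 0 CPM with the element after SYFP2-H2B and 977, 187, 2025 and 51.2 CPM with it before (edgeR adjusted p = 0.617). Dynlrb1, a dynein light chain, had 0 reads in the 4 sums with the element after and 23.7, 141, 1015 and 363 CPM before. Uros, of haem synthesis, had 527, 640, 112 and 0 CPM after and 0 reads before. The sums hold 2 to 9 nuclei, and the absence of edgeR calls does not show that the positions were alike.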

How the data were processed

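Single nuclei were amplified with SMART-seq v4, which reads whole polyadenylated transcripts without molecular identifiers, and turned into sequencing libraries by Nextera XT, as the labels' protocols state. The authors deposited 1 table of raw counts, with 32285 gene rows and 2501 columns, per the labels and the file headers; the 904 columns that match a sample were used and the other 1597 were not. Per the submitters' processing notes, alignment to mm10 used STAR 2.7.2a; the counting step and its use of strand are not given in the sources used here. Gene IDs were matched to symbols in the GENCODE mouse annotation (32158 matched, 127 not). The table holds mouse genes, and the level of the reporter was not analysed here.

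Nuclei were filtered and classed by the rules in the results, and CPM were computed from the deposited counts. Cells are not replicates, so counts were summed per construct and class for constructs with at least 3 nuclei of both classes (at least 2 within astrocytes). After filterByExpr and TMM scaling, the sums entered the quasi-likelihood test of edgeR 4.0.16 (R 4.3.3; DESeq2 1.42.0 as an alternative), with the construct or element as a block, except between pools. P-values were adjusted by Benjamini-Hochberg over all genes tested, with the genes of the class rules left out, at a threshold of 0.05. A fold against a class with 0 reads is a bound with that class set to 3 counts over the group, which covers counting error only and not the spread between sums. The SE is the log2 fold change divided by the square root of F. Shares by position and depths were compared by paired permutation tests over elements and constructs, which were exact with fewer than 10 pairs. Shares by pool were compared by permutation over construct and pool units, taken as independent. Each fit was tested on simulated data. Intervals are Clopper-Pearson at 95%, the limit for a count of 0 is 3 counts of the total, and both cover counting error only. No doublets were called, since 1 nucleus was sorted per library.

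Members and gene lists were chosen with earlier results of these data known; 2 genes were taken out of the lists and are not reported here. Named genes were the 3 list members with the highest mean CPM over astrocyte nuclei (2 for lists of other cells), the 10 called genes with the largest folds in each direction between classes among those with at least 20 CPM and in no marker list, the called genes between pools or the 3 smallest p where none was called, and the 10 most variable genes; other list members are named where they were called. Alternatives were DESeq2, RLE size factors, no low count filter, other nucleus and class thresholds, the treatment ID as the sample, no S40317, no construct block and each construct left out. Equal numbers of nuclei, thinning to 100000 reads and leaving out the S40325 blocks of at least 4 astrocytes were added after seeing the data. Figures were drawn with matplotlib 3.10.9, and shares were tested with scipy 1.17.1.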

Additional observations from a re-analysis of the deposited data

Results flagged for a closer look

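Among 47 sets of 9 construct sums of astrocyte nuclei checked, 7 had 1 construct far from the other 8 by Dixon's test; chance gives about 1 in 20. In BORG-SYFP2-H2B, whose 4 astrocyte nuclei are all from pool S40317, Cst3 had 43816 CPM (median of the 9 constructs 10978 CPM), Mt1 11002 CPM (median 2264 CPM) and Aldoc 10394 CPM (median 3833 CPM). B2m, the light chain of class I histocompatibility molecules, had 380 CPM there (median 88.6 CPM). Malat1 was low in the same sum, with 58633 CPM (median 206799 CPM). These nuclei also had a median of 3.43% mitochondrially encoded reads, and the part of that difference in these levels was not tested. In SYFP2-10aa-H2Bmod, Dtna had 2809 CPM (median 1127 CPM) and Slc39a12 1239 CPM (median 796 CPM).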

How the results depend on the processing

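No paired analysis was possible because the replicate number in a title counts the nuclei of a construct and links no animals or batches between constructs; this concerns those numbers alone, and the pairs and blocks used were constructs or elements. Against neurons, genes called lower fell to 5221 of 14375 tested without pool S40317 and to 2452 of 13337 with equal numbers of nuclei. Without the construct as a block, 310 were higher and 1335 lower of 9789 tested. Leaving out 1 construct gave 498 to 558 higher and 6869 to 7808 lower. Against oligodendrocytes, DESeq2 called 1352 higher and 1038 lower, the treatment ID as the sample 261 and 168, no construct block 223 higher, at least 1000 genes per nucleus 51 lower and equal numbers of nuclei 57 lower; leaving out 1 construct gave 72 to 95 higher and 54 to 69 lower. Between pools, DESeq2 called 1023 higher and 122 lower, no low count filter 5 lower, at least 1000 genes 0 lower and the treatment ID 2 higher; leaving out 1 construct gave 2 to 11 higher and 0 to 5 lower. Where this left S40325 with 1 sum, that sum was taken to vary like those of S40327. For element position, DESeq2 called 289 higher and 205 lower, and edgeR called 0 in each direction with any 1 element left out. The causes of these shifts were not tested. The share difference by position ran between -0.65 points (without 3xsmOPT) and 7.11 points with 1 element left out, and that by pool between 1.51 and 7.32 points. With the treatment ID as the sample, the mean difference in reads of astrocyte minus oligodendrocyte nuclei was 10729 over 8 IDs (-20396 over 5 constructs), and that in genes 561 (exact p = 0.0078).

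Of 52 named genes called against neurons, 9 lost the call in 36 of 1028 alternative values, 9 of 33 did so against oligodendrocytes (34 of 494), and all 6 between pools (21 of 88); none changed sign. Hsd11b1, Dynlrb1 and Uros passed for element position under DESeq2 alone. Median log2 fold changes over all genes against neurons ran from -5.53 to -0.92 over the settings, so a fold near that range says little for a sparse gene. The sums against neurons held 4 to 11 astrocyte nuclei each, which limits the differences that could be called.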

Other observations

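The nuclei in which Crym was detected together with each of 10 other genes were counted, with no test, since the genes were chosen after their values were seen. All 24 nuclei with Crym reads belong to pool S40327, so they are set beside the 23 astrocyte nuclei of that pool without Crym reads. Id3 had reads in 23 of the 24 and 16 of the 23, and Hes5, a Notch target, in 19 and 9. Penk had reads in 12 of the 24 and 7 of the 23, and Lhx2, a homeobox gene, in 6 and 4. Gjb6 ran the other way, with 13 of the 24 and 18 of the 23, as did Agt, the angiotensin precursor, with 2 and 8. Snap25 had reads in 4 and 6, and Ppp1r1b in 12 and 13. Chrdl1, a secreted protein of astrocytes, had reads in 5 and 5, and Il33, a cytokine of glia, in 8 and 8.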
